A study of Mus musculus with 28 samples.

Results

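The 35 genes described here encode the machinery that oxidises fatty acids in mitochondria and peroxisomes, 35 of 18194 genes measured on 28 Affymetrix oligonucleotide arrays. They were chosen by name, with earlier results of these data known. Each is read by the probe set that names that gene alone and had the highest mean over all arrays. All 35 had such a probe set, and none was left out for a low signal. By where the protein works, 17 genes are mitochondrial, 9 are peroxisomal enzymes and 5 are peroxisomal transporters or biogenesis factors. Another 3 encode proteins known from both organelles, and 1 encodes a cytosolic enzyme. The tissue is the retroperitoneal fat pad, a white fat depot behind the abdominal cavity, of mice written as C57BK/6J in the labels and 9 weeks old. One set of mice ate conjugated linoleic acid (CLA) as its trans-10 cis-12 isomer, at 0.5% of the diet, and the other a control diet. Pads were collected on days 1, 2, 3, 4, 7, 10 and 17 of feeding, which gives 14 groups of diet and day with 2 arrays each. Per the labels, the RNA came from the pads of 10 mice combined. The design text speaks of replicated pools but counts 140 mice, which is what 1 pool of 10 mice for each of the 14 groups comes to. Both arrays of a group may therefore hold the same pool, and p-values of single days and of contrasts between days may measure technical spread only.

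Mitochondrial oxidation takes up long-chain fatty acids as carnitine esters and shortens them by repeated dehydrogenation, hydration, a second dehydrogenation and thiolysis, passing electrons to the respiratory chain. Peroxisomal oxidation runs the same chemistry with its own enzymes, accepts very long, branched and dicarboxylic chains, and makes hydrogen peroxide in its first step. Shortened chains leave peroxisomes as carnitine esters or free acids and can be finished in mitochondria. Double bonds, such as those of conjugated linoleic acid itself, are handled in both organelles by auxiliary isomerases and reductases. In white adipocytes these pathways are expressed beside fat storage, and many of their genes are known targets of PPAR nuclear receptors.

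The sequences of 4 genes whose values carry the contrasts below are given as the 250 bases before the annotated start, from RefSeq on GRCm38.p6, read 5′ to 3′ on the strand of the gene. Among the 35 genes, Eci3 and Ehhadh are the peroxisomal enzymes that fell most, Eci1 is the mitochondrial enzyme that fell most, and Cpt1a rose. Capitals mark a GC box (GGGCGG on either strand, so also CCGCCC) or a CCAAT box (CCAAT, or ATTGG on the other strand). The windows are chr13:34963810-34964059 (minus strand) for Eci3, chr16:21787835-21788084 (minus strand) for Ehhadh, chr17:24426433-24426682 (plus strand) for Eci1 and chr19:3323051-3323300 (plus strand) for Cpt1a.
Eci3: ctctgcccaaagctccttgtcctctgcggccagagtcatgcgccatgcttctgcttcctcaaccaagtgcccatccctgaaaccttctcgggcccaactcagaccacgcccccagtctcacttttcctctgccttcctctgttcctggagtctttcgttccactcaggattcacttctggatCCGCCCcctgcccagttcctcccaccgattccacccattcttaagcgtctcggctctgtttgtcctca
Ehhadh: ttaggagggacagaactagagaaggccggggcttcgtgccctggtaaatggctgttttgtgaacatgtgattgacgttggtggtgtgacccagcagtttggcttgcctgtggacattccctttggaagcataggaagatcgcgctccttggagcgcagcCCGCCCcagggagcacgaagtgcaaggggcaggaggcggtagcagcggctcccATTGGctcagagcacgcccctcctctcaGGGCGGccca
Eci1: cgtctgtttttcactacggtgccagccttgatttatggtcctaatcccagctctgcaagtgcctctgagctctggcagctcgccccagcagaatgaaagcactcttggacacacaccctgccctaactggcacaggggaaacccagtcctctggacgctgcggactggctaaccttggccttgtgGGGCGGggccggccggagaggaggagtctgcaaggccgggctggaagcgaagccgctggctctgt
Cpt1a: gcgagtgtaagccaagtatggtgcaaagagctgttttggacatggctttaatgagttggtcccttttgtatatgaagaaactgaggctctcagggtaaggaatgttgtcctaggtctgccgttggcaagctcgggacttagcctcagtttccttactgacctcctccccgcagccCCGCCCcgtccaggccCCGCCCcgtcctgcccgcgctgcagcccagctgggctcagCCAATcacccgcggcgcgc
All 4 windows hold at least 1 GC box, and those of Ehhadh and Cpt1a also hold a CCAAT box. Windows were matched by symbol for 29 of the 35 genes, and those of Acaa2, Decr1, Hsd17b4, Abcd2, Pex19 and Crat were not used here. A GC box lay in 20 of the 29 windows (69.0%) and in 32.9% of 27025 windows of this length over all genes. Member windows also held more G and C, with a median of 58.8% against 52%. A CCAAT box lay in 13 of 29 windows (44.8%), against 34.5% of all. A TATA box (TATAAA) lay in 0 of 29 windows, against 13.0% of all. The NRF1 motif (GCGC, any base, then TGCGC) lay in 3 windows, those of Abcd3, Etfb and Etfdh, or 10.3% against 3.86% of all. The direct repeat that PPAR heterodimers are known to bind (AGGNCA, any base, then AGGNCA again) lay in 0 of 29 windows and in 0.333% of all. The ERR motif (TNAAGGTCA) lay in 0 of 29 and in 1.14% of all. These are matches of letters on either strand, not binding sites, and the ERR motif holds the half-site AGGNCA of the PPAR repeat. GC boxes lay in 9 of 15 mitochondrial and in 8 of 11 peroxisomal windows, transporters and biogenesis factors included.

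Values are log2 probe-set signals from RMA. Levels are compared only within a gene, apart from summed marker lists and readings set against the dim end. Arrays of 1 group correlated at 0.979 to 0.995 over genes. The 3′ minus 5′ signal of the Actb control, a sign of RNA quality, was 1.50 to 2.77 on the 4 arrays of day 1 (log2, median 2.50) and 0.77 to 1.87 on the other 24 (median 1.27). Most tests and medians that set early against late days are therefore also given without day 1. Of the 10 measured adipocyte markers, all were lower in CLA. The log2 of their summed signals, which the brightest markers dominate, ran from 15.4 to 15.9 in control and from 14.7 to 15.0 in CLA. All 12 macrophage markers were higher. Their sum, taken the same way, ran from 12.8 to 13.9 in control and from 13.2 to 15.4 in CLA. In these pads, fewer cells of a type and less RNA per cell cannot be told apart, and the part of cell composition in the results below was not tested.

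Over the 7 days of feeding most genes of fatty acid oxidation were lower in CLA pads. With the day as the unit of replication (limma, adjusted over all genes, threshold 0.05), 26 of the 35 were lower and 3 were higher. Of all genes tested, 19.8% were lower and 18.7% higher by this test. The median difference of the 35 was -0.54 on the log2 scale, against -0.03 over all genes. The 6 genes that passed in neither direction were the mitochondrial Acadvl, Hadha and Acaa2 and the peroxisomal Acox3, Decr2 and Acot8. The 3 that rose were Cpt1a, Acot2 and Acot1. In 7 genes (Cpt2, Eci1, Etfa, Ehhadh, Eci3, Abcd2 and Pex19) every one of the 14 CLA arrays lay below every one of the 14 control arrays, which held for 3.58% of all genes. No member had all CLA arrays above, against 0.830% of all genes.

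**Figure D1:**
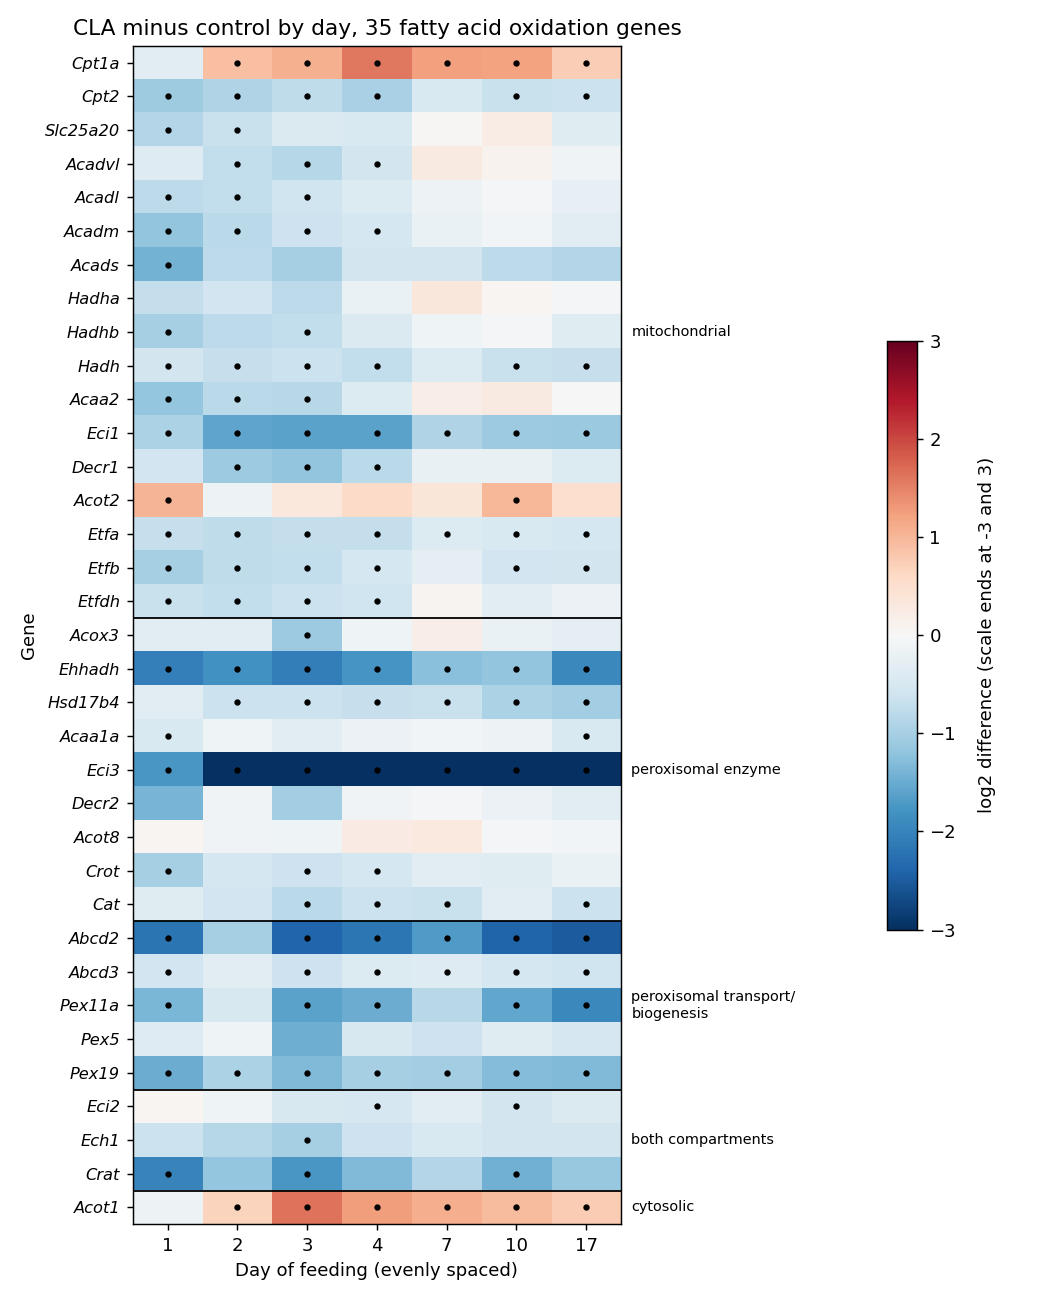
The colour shows the CLA minus control difference (log2, 2 arrays per group) of each of the 35 genes (rows, grouped by compartment) on each day (columns, not to scale in time), and a dot marks an adjusted p under 0.05 on that day. Cpt1a and Acot1 are red from day 2 on, Eci3 lies past the end of the scale from day 2 on, and most mitochondrial rows fade from blue toward white by day 7.

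Entry of long-chain acids into mitochondria was split between a gene that rose and others that fell. Cpt1a, the outer-membrane carnitine palmitoyltransferase that is known to limit this entry, ran from 7.45 through a median of 8.07 to 8.35 on control arrays and from 7.26 through 9.12 to 9.68 on CLA arrays. Its difference over 7 days was 0.92 ± 0.19 (SE, n = 7 days; adjusted p = 0.00512), or 1.89-fold. On day 1 the arrays of both diets overlapped (control 7.45 and 8.05, CLA 7.26 and 7.62), and on the 6 later days both CLA arrays lay above both control arrays. The daily differences from day 2 were 0.90, 1.07, 1.58, 1.22, 1.21 and 0.74, each past the threshold. Cpt2, the inner-membrane enzyme that turns carnitine esters back into acyl-CoA, went the other way. Its control arrays ran from 10.32 through 10.72 to 10.93 and its CLA arrays from 9.42 through 9.88 to 10.31. It fell by 0.79 ± 0.079 (adjusted p = 9.58e-05), and the 2 sets of arrays did not overlap. Slc25a20, the carnitine-acylcarnitine translocase, fell by 0.37 ± 0.13, but its adjusted p of 0.0479 passed 0.05 when any of days 1, 2, 3, 4 or 17 was left out (highest 0.12).

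The acyl-CoA dehydrogenases carry out the first step of mitochondrial oxidation, each on its own range of chain lengths. The short-chain enzyme Acads fell most. Control arrays of Acads ran from 7.49 through 8.67 to 8.99 and CLA arrays from 6.39 through 7.80 to 8.36, and the difference was -0.85 ± 0.10 (adjusted p = 0.000282). Its arrays of 1 diet spread widely, and day 1 was the only day past the threshold (-1.43). The medium-chain Acadm fell by 0.54 ± 0.13 (adjusted p = 0.00845) and the long-chain Acadl by 0.42 ± 0.10 (adjusted p = 0.00992). For the very-long-chain Acadvl the difference was -0.33 ± 0.14 (adjusted p = 0.103). Acadvl was nonetheless lower on days 2, 3 and 4 (-0.74, -0.86 and -0.55), and positive differences of 0.27 and 0.10 on days 7 and 10 stand against these in its mean.

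In the inner spiral of mitochondrial oxidation, Hadhb and Hadh fell and Hadha and Acaa2 did not pass. Hadha and Hadhb encode the alpha and beta subunits of the trifunctional protein, which hydrates, dehydrogenates and cleaves long chains. Control arrays of Hadha ran from 8.66 through 9.99 to 10.17 and CLA arrays from 8.28 through 9.79 to 10.39, which overlap almost fully (-0.27 ± 0.14, adjusted p = 0.164). Hadhb ran from 11.29 through 11.56 to 11.81 in control and from 10.01 through 11.10 to 11.53 in CLA, and fell by 0.50 ± 0.12 (adjusted p = 0.00977). Hadh, the dehydrogenase for medium and short chains, fell by 0.63 ± 0.055 (adjusted p = 4.88e-05) and was called lower on 6 of 7 days. Acaa2, the mitochondrial thiolase, ran from 9.65 through 9.99 to 10.33 in control and from 8.80 through 9.65 to 10.75 in CLA. Its difference over 7 days was -0.40 ± 0.18 (adjusted p = 0.123), with daily values of -1.17, -0.81 and -0.83 on days 1 to 3 and of 0.20, 0.28 and -0.02 on days 7, 10 and 17.

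Both mitochondrial auxiliary enzymes for unsaturated chains fell. Eci1, the mitochondrial enoyl-CoA isomerase that moves double bonds into the position the spiral accepts, ran from 10.03 through 10.72 to 10.91 in control and from 8.63 through 9.37 to 9.94 in CLA. It fell by 1.27 ± 0.11 (adjusted p = 4.68e-05), or 2.40-fold, with no overlap between diets. Its daily differences were -0.94, -1.58, -1.61, -1.61, -0.90, -1.10 and -1.13, past the threshold on all 7 days. Decr1, the mitochondrial dienoyl-CoA reductase, ran from 10.50 through 11.05 to 11.14 in control and from 9.49 through 10.41 to 10.95 in CLA. It fell by 0.65 ± 0.13 (adjusted p = 0.00405), with differences of -0.57, -1.08, -1.20, -0.81, -0.23, -0.23 and -0.42 by day.

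Electrons from these dehydrogenases reach the respiratory chain through the electron transfer flavoprotein, whose subunits are Etfa and Etfb, and its membrane oxidoreductase Etfdh. Etfa fell by 0.61 ± 0.062 (adjusted p = 0.000101), on all 7 days and without overlap of the diets. Etfb fell by 0.64 ± 0.082 (adjusted p = 0.000342) and Etfdh by 0.44 ± 0.10 (adjusted p = 0.0094). These 3 genes stayed within a narrow range of sizes, from 0.44 to 0.64.

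Thioesterases, which release free acids from acyl-CoA, held 2 of the 3 genes that rose. The cytosolic Acot1 ran from 3.93 through 4.10 to 4.39 in control and from 4.04 through 4.98 to 5.94 in CLA, a rise of 0.88 ± 0.18 (adjusted p = 0.00429). As with Cpt1a, day 1 showed no rise (control 4.30 and 4.34, CLA 4.29 and 4.04). The differences from day 2 were 0.67, 1.63, 1.25, 1.08, 0.94 and 0.76, each past the threshold. Acot1 lay low on the scale in control, near the dim end of all probe sets. The mitochondrial Acot2 ran from 7.20 through 7.61 to 8.31 in control and from 7.17 through 8.06 to 9.21 in CLA and rose by 0.52 ± 0.13 (adjusted p = 0.0138). Only days 1 and 10 passed on their own (1.03 and 0.99), and on day 2 its difference was -0.15. The peroxisomal Acot8 ran from 6.10 through 6.63 to 6.90 in control and from 6.07 through 6.73 to 6.91 in CLA, with a difference of 0.04 ± 0.069 (adjusted p = 0.726).

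**Figure D2:**
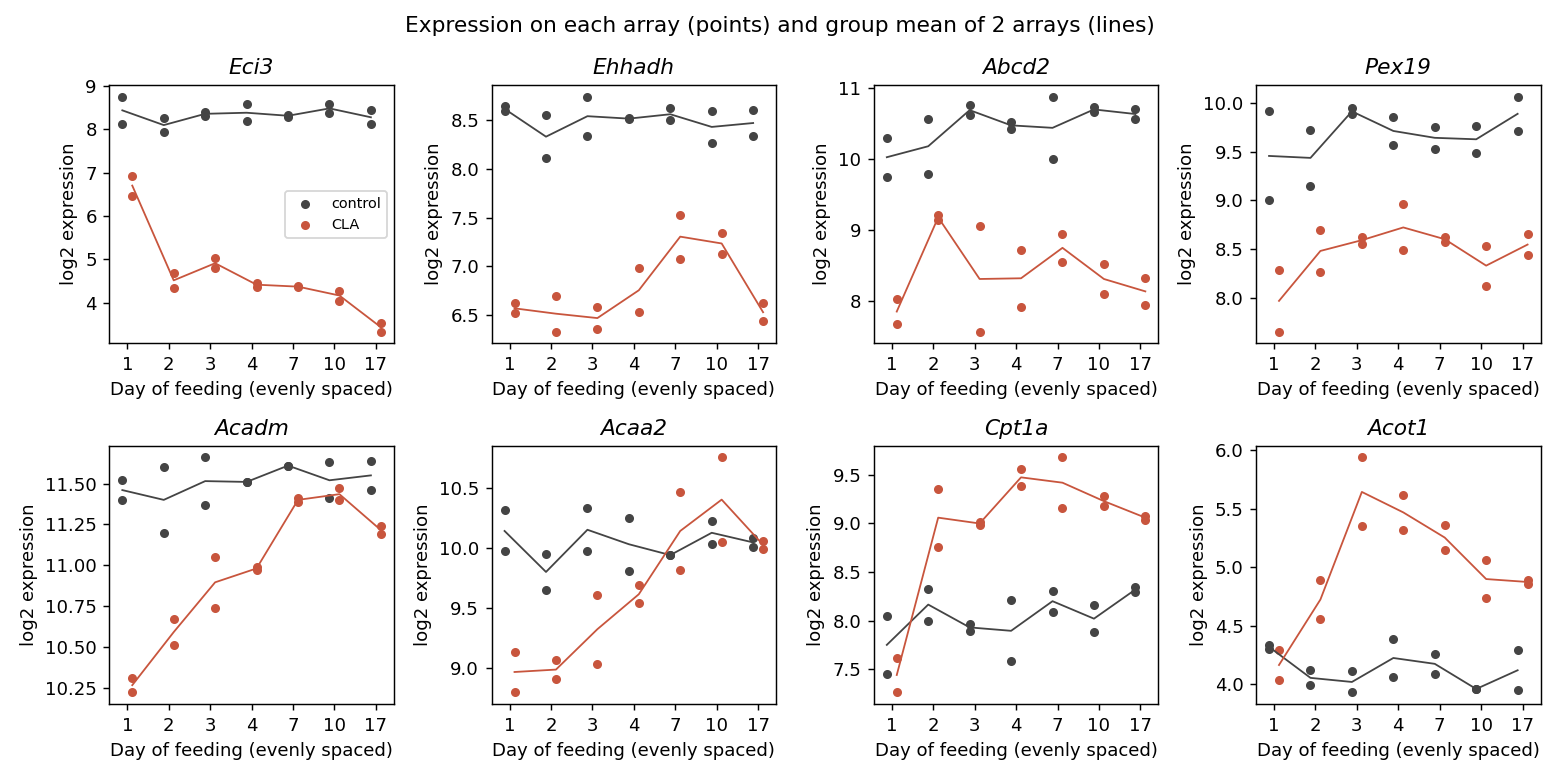
Points are the log2 signals of single arrays and lines join the mean of the 2 arrays of each group, by day (not to scale in time), for 8 genes with control in grey and CLA in red; each panel has its own vertical axis. Eci3 CLA arrays fall from 6.93 and 6.47 on day 1 to 3.54 and 3.33 on day 17, while those of Acadm and Acaa2 climb toward control and those of Cpt1a and Acot1 lie above control from day 2.

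Among the 9 peroxisomal enzymes, Eci3 and Ehhadh had the largest differences. Eci3, a peroxisomal enoyl-CoA isomerase, showed the largest change of all 35 genes. Control arrays of Eci3 ran from 7.94 through 8.32 to 8.75 and CLA arrays from 3.33 through 4.38 to 6.93. It fell by 3.69 ± 0.31 (adjusted p = 4.13e-05), or 12.9-fold. From day 2 on its CLA arrays read 3.33 to 5.02, and 9 of all 14 lay at or under 4.56, the highest mean among kidney markers, which read 2.41 to 4.56 in these pads. So close to the dim end the fold is a lower bound. The daily differences were -1.74, -3.58, -3.45, -3.97, -3.94, -4.32 and -4.84. The fall was present on day 1 (control 8.75 and 8.12, CLA 6.93 and 6.47) and on day 17 the control arrays read 8.11 and 8.44 and the CLA arrays 3.54 and 3.33. Ehhadh, the bifunctional hydratase and dehydrogenase of the peroxisome, ran from 8.11 through 8.54 to 8.74 in control and from 6.33 through 6.62 to 7.53 in CLA. It fell by 1.73 ± 0.12 (adjusted p = 2.05e-05), or 3.31-fold. Its daily differences of -2.05, -1.82, -2.07, -1.76, -1.26, -1.20 and -1.94 all passed the threshold, and no CLA array reached the lowest control array.

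The remaining peroxisomal enzymes changed less or did not pass. Hsd17b4, the second bifunctional enzyme, which acts on branched and very long chains, fell by 0.71 ± 0.085 (adjusted p = 0.000256) on every day but day 1. Catalase (Cat), which removes the hydrogen peroxide, fell by 0.58 ± 0.067 (adjusted p = 0.000208). Crot, which makes carnitine esters of shortened chains for export, ran from 8.27 through 8.51 to 8.77 in control and from 7.42 through 8.07 to 8.31 in CLA and fell by 0.50 ± 0.093 (adjusted p = 0.00245). Acaa1a, a peroxisomal thiolase, ran from 7.48 through 7.70 to 8.18 in control and from 7.20 through 7.46 to 7.75 in CLA. It fell by 0.26 ± 0.065 (adjusted p = 0.0121), the smallest difference among the genes that passed. A second, dimmer set that also names Acaa1a alone gave -0.73 ± 0.10 (adjusted p = 0.00064 over all probe sets), so the size depends on the set read. Acox3, an oxidase for branched chains, gave -0.31 ± 0.13 (adjusted p = 0.0962), and only day 3 passed (-1.09). Decr2, the peroxisomal dienoyl-CoA reductase, ran from 3.28 through 4.94 to 5.46 in control and from 3.15 through 4.41 to 5.27 in CLA. Its difference of -0.46 ± 0.18 (adjusted p = 0.0693) sits on arrays that spread by over 2 log2 units within a diet, and no day passed. Acox3 (mean 4.71 in control and 4.40 in CLA) and Decr2 (4.78 and 4.32) lay near the dim end. The highest kidney marker mean was 4.56, and so close to it a difference can read too small.

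The 5 members that encode peroxisomal transporters or biogenesis factors were all lower over 7 days, by different sizes. Abcd2, the transporter of very-long-chain acyl-CoA that is abundant in fat, ran from 9.75 through 10.57 to 10.88 in control and from 7.56 through 8.42 to 9.21 in CLA. It fell by 2.05 ± 0.17 (adjusted p = 4.10e-05), or 4.13-fold, with daily differences of -2.18, -1.01, -2.39, -2.16, -1.70, -2.40 and -2.51. Day 2 alone did not pass (adjusted p = 0.12). Pex19, the chaperone that carries membrane proteins to peroxisomes, ran from 9.00 through 9.74 to 10.06 in control and from 7.66 through 8.55 to 8.96 in CLA. Pex19 fell by 1.20 ± 0.078 (adjusted p = 1.48e-05), on each of the 7 days (-1.48, -0.95, -1.32, -0.99, -1.04, -1.29 and -1.34). Pex11a, which promotes peroxisome division, fell by 1.33 ± 0.16 (adjusted p = 0.000267). Its control arrays ran from 8.65 through 10.27 to 10.57 and its CLA arrays from 8.22 through 8.73 to 9.85. The lowest control value, 8.65, belongs to 1 array of day 7 whose partner read 10.46, and every other control array lay above every CLA array. Its daily differences were -1.37, -0.49, -1.61, -1.50, -0.84, -1.55 and -1.95, and days 2 and 7 did not pass. The transporter Abcd3 fell by 0.49 ± 0.057 (adjusted p = 0.000208). Pex5, the import receptor, fell by 0.57 ± 0.14 (adjusted p = 0.0107) over 7 days but on no single day, and without replicate 2 its adjusted p was 0.184.

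Of the genes known from both organelles, Crat fell most. This carnitine acetyltransferase ran from 7.87 through 9.31 to 9.58 in control and from 6.18 through 7.91 to 8.45 in CLA and fell by 1.38 ± 0.13 (adjusted p = 6.62e-05), or 2.61-fold. Days 1, 3 and 10 passed, within daily differences of -2.0, -1.16, -1.75, -1.32, -0.88, -1.45 and -1.13. Ech1, a dienoyl-CoA isomerase, fell by 0.67 ± 0.075 (adjusted p = 0.000163). Eci2 fell by 0.34 ± 0.083 (adjusted p = 0.0104), a call that was lost without replicate 1 (adjusted p = 0.0838).

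More members were called lower on each of days 1 to 4 than on days 7, 10 and 17, and the count was highest on day 3. Of the 35 genes, 21 were lower on day 1 (10.8% of all genes were), 16 on day 2 (5.34%), 24 on day 3 (11.0%), 19 on day 4 (11.3%), 9 on day 7 (8.57%), 14 on day 10 (10.2%) and 14 on day 17 (8.78%). Higher calls numbered 1 on day 1 (7.96% of all genes), 3 on day 10 (10.0%) and 2 on each of days 2 (4.84%), 3 (11.3%), 4 (12.8%), 7 (8.74%) and 17 (11.5%). With 2 arrays a group these counts rest on single arrays. Without the control array of replicate 2, the lower count of day 2 was 4. On day 3 it was 15 without CLA replicate 1. On day 4 it was 8 without CLA replicate 2 and 11 without control replicate 2. On day 7 it was 4 or 5 without CLA replicate 1 or 2 and 2 without control replicate 2, and on day 10 it was 8 without CLA replicate 1. Day 1 kept 15 to 23 and day 17 kept 10 to 15. Higher counts reached 0 or 1 on days 1, 2 and 17 without arrays of those days.

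The mitochondrial genes followed the same course. On days 1, 2 and 3, 12 of 17 mitochondrial genes were called lower each day, then 9 on day 4, 2 on day 7 and 5 on each of days 10 and 17. Their median difference was -0.78, -0.76, -0.74, -0.53, -0.16, -0.09 and -0.36 by day. The 9 peroxisomal enzymes gave 4, 3, 6, 5, 4, 3 and 5 lower calls with medians of -0.46, -0.53, -0.81, -0.53, -0.31, -0.35 and -0.46. The 5 transporters and biogenesis factors gave 4, 1, 4, 4, 3, 4 and 4, with medians of -1.37, -0.49, -1.47, -0.99, -0.84, -1.29 and -1.34. So the median of these 17 mitochondrial genes moved most of the way to 0 by day 10. On day 17 it lay further from 0 again (-0.36), with 15 of the 17 differences negative. The median of the transporters and biogenesis factors stayed at -0.84 or lower on all days but day 2.

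**Figure D3:**
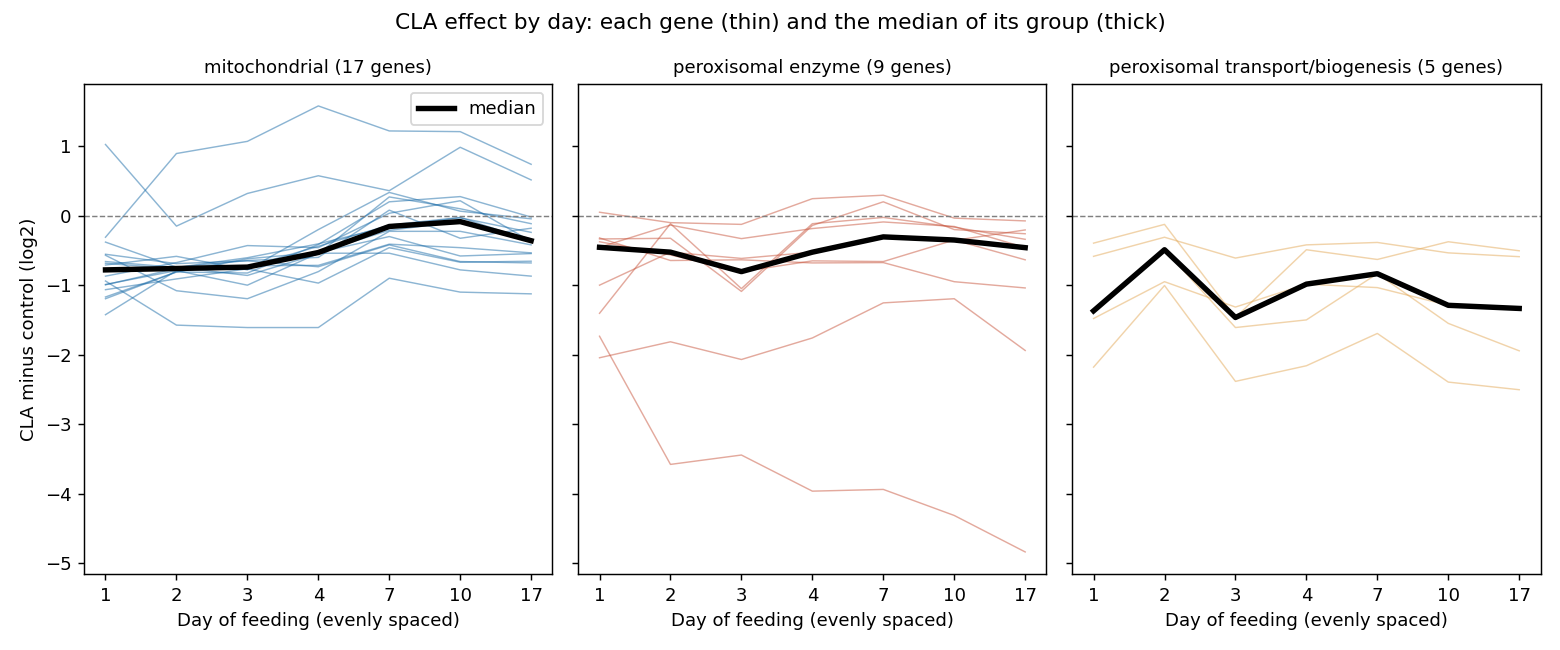
Each thin line is the CLA minus control difference (log2) of 1 gene by day (not to scale in time) and the thick line is the median of its group, for 17 mitochondrial genes, 9 peroxisomal enzymes and 5 peroxisomal transporters or biogenesis factors. The mitochondrial median goes from -0.78 on day 1 to -0.09 on day 10 and -0.36 on day 17, and the lowest line of the peroxisomal enzymes is Eci3.

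Whether the CLA effect moved was tested per gene by subtracting its mean over days 1, 2 and 3 (early) from its mean over days 7, 10 and 17 (late). The effect was higher late in 8 of the 35 genes (6.20% of all genes), all of them mitochondrial, and lower late in 1, Eci3 (3.51% of all genes). For Acaa2 the effect went from -0.94 early to 0.15 late, a shift of 1.09 ± 0.20 (adjusted p = 0.00155). Acaa2 arrays on day 1 read 9.97 and 10.31 in control and 8.80 and 9.14 in CLA, and on day 10 they read 10.03 and 10.22 in control and 10.05 and 10.75 in CLA. The diets were apart at first and overlapped later. For Acadm it went from -0.88 to -0.21, a shift of 0.67 ± 0.12 (adjusted p = 0.00121). Acadm read 11.40 and 11.52 in control and 10.22 and 10.31 in CLA on day 1, and 11.63 and 11.41 in control and 11.47 and 11.40 in CLA on day 10. On days 7 and 17 both CLA arrays of Acadm still lay below both control arrays (differences of -0.21 and -0.335). Its control arrays held steady between 11.20 and 11.66, so the movement was in the CLA arrays.

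The shift was 0.75 ± 0.13 for Acadvl (adjusted p = 0.00116), 0.66 ± 0.16 for Decr1 (0.0128), 0.62 ± 0.17 for Slc25a20 (0.0239), 0.57 ± 0.14 for Acadl (0.0143) and 0.54 ± 0.13 for Etfdh (0.0118). Hadhb also passed (0.67 ± 0.20, adjusted p = 0.0458) but lost the call in 22 of 28 omissions of a single array. For Slc25a20 it was lost in 4 of these omissions. All 17 mitochondrial genes had a positive shift, of 0.045 or more, and their median effect went from -0.72 early to -0.17 late. Of the 9 peroxisomal enzymes, 7 had a positive shift, and their median effect went from -0.58 to -0.29. Without passing, the shift was 0.51 for Ehhadh (adjusted p = 0.0583) and 0.425 for Crot (adjusted p = 0.063). Decr2 and Acox3, both near the dim end, gave 0.68 and 0.50 without passing, and Hsd17b4 gave -0.355. Eci3 moved the other way, from -2.92 to -4.37, a shift of -1.45 ± 0.17 (adjusted p = 1.54e-05). The transporters and biogenesis factors had medians of -1.16 early and -1.22 late, with none called.

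Leaving out day 1 thinned these calls. The mitochondrial median then went from -0.74 on days 2 and 3 to -0.17 late, with a positive shift in all 17 genes. That of the peroxisomal enzymes went from -0.64 to -0.29, with a positive shift in 6 of 9, and that of the transporters and biogenesis factors from -1.05 to -1.22. Against days 2 and 3 alone, the late effect was higher in 5 genes (2.73% of all genes), Acadvl, Acadm, Acaa2, Decr1 and Etfdh, and lower in Eci3 (1.57% of all genes). Slc25a20, Acadl and Hadhb then gave 0.51, 0.53 and 0.59 without passing. An F test of the 7 daily effects against each other passed for 6 genes (9.82% of all genes): Eci3 (adjusted p = 3.85e-05), Acot1 (0.00428), Acadvl (0.0114), Acadm (0.0121), Cpt1a (0.0146) and Acaa2 (0.0331). Without day 1 it passed for Acadvl alone (adjusted p = 0.0213; 2.48% of all genes). For Cpt1a and Acot1, whose rise began on day 2, the adjusted p was then 0.874 and 0.336.

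Other gene groups also had different median effects early and late. A list of 19 genes held enzymes of the respiratory chain and citrate cycle beside the mitochondrial factors Tfam, Vdac1, Hspd1 and Tomm20. Its median effect went from -0.61 early (-0.64 without day 1) to -0.20 late. The late minus early test passed for 3 of the 19 as higher, the chain subunits Sdhb, Ndufa9 and Uqcrc2, with and without day 1. It passed for 1 as lower, the chaperone Hspd1, whose shift of -0.70 was -0.23 without day 1 and did not pass (adjusted p = 0.366). Over 7 days 13 of the 19 were lower and 1, the import receptor Tomm20 (0.21), was higher. The largest differences were those of Sdha (-0.86), Ndufs1 (-0.70) and Ndufv1 (-0.68). Of 9 brown adipocyte markers, 6 had a higher effect late and none lower, also without day 1. Ucp1, which uncouples respiration in brown fat, went from -1.49 early (-1.17 without day 1) to 4.30 late. The log2 of the summed brown marker signals ran from 10.4 to 11.7 in control and from 8.04 to 13.0 in CLA. Of these 9 markers, 5 had a mean under 5 in control, with Zic1 the lowest at 2.69. Over 7 days Cidea (-2.27) and Cox8b (-1.85) were lower and Elovl3 (1.20) higher. Of 12 macrophage markers, 9 had a higher effect late (6 without day 1), and their median effect went from 1.17 (1.78 without day 1) to 2.54. Adipocyte markers went from a median of -1.29 (-1.16 without day 1) to -1.70, and 1 of the 10, Lep, passed as lower late with and without day 1. The part of each of these in the course of the mitochondrial genes was not tested.

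**Figure D4:**
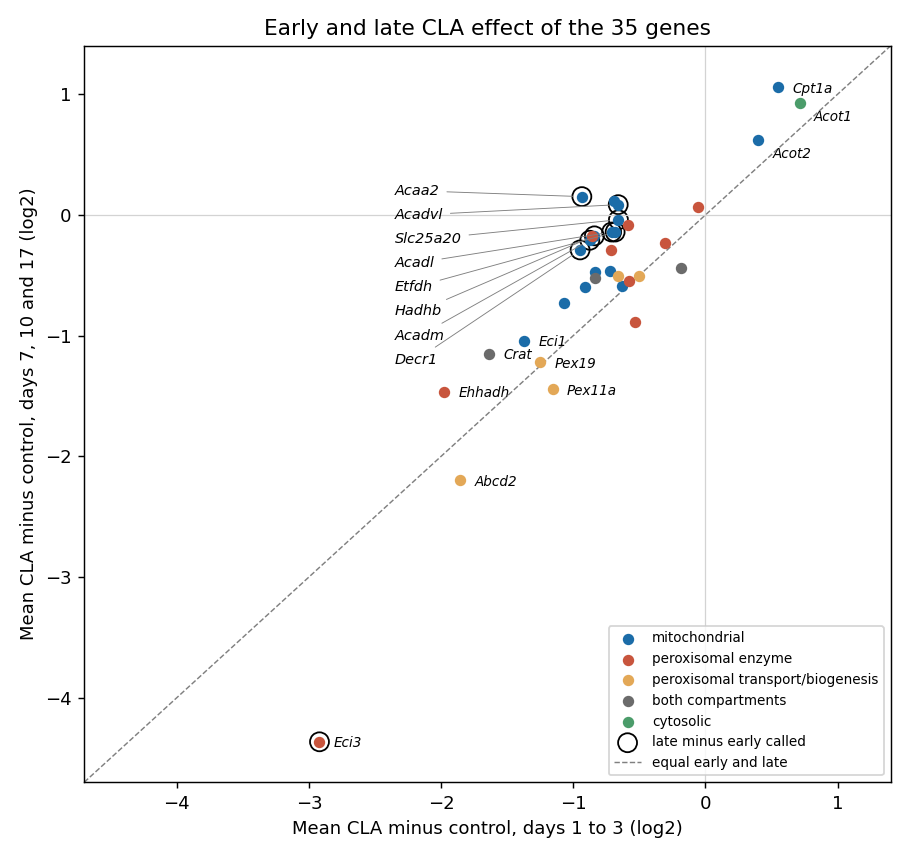
Each point is 1 of the 35 genes, with its mean CLA minus control difference (log2) on days 1, 2 and 3 on the horizontal axis and on days 7, 10 and 17 on the vertical axis; colours mark compartments, the dashed line marks equal effects, and circles mark an adjusted p under 0.05 for late minus early. The 8 circled mitochondrial genes lie above the line near a late effect of 0, and Eci3 lies below it at -2.92 and -4.37.

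Set against each other, the mitochondrial genes and the peroxisomal enzymes had nearly the same median effect over the whole course. The peroxisomal median includes Acox3 and Decr2, which lay near the dim end. The mitochondrial median minus the peroxisomal enzyme median was 0.0021 ± 0.21 (SD over 7 days), with daily values of -0.33, -0.24, 0.07, -0.01, 0.15, 0.27 and 0.10. The sign changed with time, from a mean of -0.17 on days 1 to 3 to 0.17 on days 7, 10 and 17. With the transporters and biogenesis factors counted as peroxisomal the sign did not change (0.03 early and 0.37 late, 0.18 over 7 days). It did not change with the most variable probe set of each gene either (0.08 early and 0.40 late, 0.20 over 7 days). The rise from early to late was 0.34, and 0.26 without day 1. No test was made on these medians, since the genes were chosen with earlier results of these data known and share arrays.

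Counterparts of both organelles were also set against each other one by one. At the hydratase and dehydrogenase step, the peroxisomal Ehhadh was lower than the mitochondrial Hadha in its CLA effect by 1.45 ± 0.24 (SD over days) and than Hadhb by 1.23 ± 0.20, on 7 of 7 days. Against Hsd17b4, the other peroxisomal bifunctional enzyme, the gap was smaller; these pairs were added after their values were seen. Hadha minus Hsd17b4 was 0.43 ± 0.60, positive on 5 of 7 days, and Hadhb minus Hsd17b4 was 0.21 ± 0.55, positive on 4. The mitochondrial dehydrogenase Hadh lay above Ehhadh by 1.10 ± 0.34 but above Hsd17b4 by only 0.08 ± 0.22. For the isomerases, Eci3 lay below Eci1 by 2.42 ± 0.99, again on 7 of 7 days, and the gap went from 1.55 early to 3.32 late. The gap was smallest on day 1 (0.795). On days 2 and 3 the mean effect was -1.59 for Eci1 and -3.51 for Eci3, and late it was -1.04 and -4.37. Eci2, which is known from both organelles, fell by only 0.34 over 7 days, less than Eci1 (1.27). The other pairs gave smaller gaps, and the pair with Decr2 holds a gene near the dim end. Decr1 minus Decr2 was -0.19 ± 0.57, and Acaa2 minus Acaa1a was -0.14 ± 0.52, with a turn from -0.63 early to 0.39 late for the thiolases. The sign of the thiolase gap depends on the sets read. Over 7 days the second Acaa1a set gave -0.73 and another Acaa2 set -0.93, against -0.26 and -0.40 for the sets used. Cpt2 and Crot are both carnitine acyltransferases but work in opposite directions, and Cpt2 had the lower effect on 7 of 7 days (-0.28 ± 0.16). Acot2 lay above Acot8 by 0.48 ± 0.41, on 6 of 7 days. These differences between effects were not tested.

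Neighbouring genes of both pathways followed the same direction. Of 13 other genes of mitochondrial acyl-CoA oxidation, 11 were lower and 0 higher, with a median of -0.87. The largest were Pccb (-1.50) and Mmut (-1.29), enzymes that dispose of propionyl-CoA, and Echs1 (-1.37), the short-chain hydratase. The median effect of these 13 went from -1.045 early (-1.06 without day 1) to -0.67 late. Late it thus stayed further from 0 than that of the 17 mitochondrial members (-0.17). Of the 13, 2 had a higher effect late and 0 a lower one, with and without day 1. Of 20 other peroxisomal genes, 16 were lower and 2 higher, with a median of -1.06. Pxmp2, a channel of the peroxisomal membrane, fell by 2.67, Acad11 by 1.93 and Nudt12, a nucleotide hydrolase, by 1.46. The 2 that rose, singled out after their values were seen, were Agps (0.74) and Far1 (0.62), which act in ether lipid synthesis. Gnpat, which starts the same route in the peroxisome, fell by 1.43. Of 10 other peroxins, 9 were lower and 0 higher (median -0.59), led by Pex16 (-1.11), Pex3 (-0.94) and Pex6 (-0.73).

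Among 16 genes that regulate fatty acid oxidation, 8 were lower and 0 higher. Acaca fell by 2.24 and Acacb fell by 2.08, the acetyl-CoA carboxylases whose product malonyl-CoA inhibits the Cpt1 enzymes. Lpin1, a phosphatidate phosphatase and coactivator, fell by 1.74. Of genes named after their values were seen, Pparg fell by 1.12 and Rxra by 1.02, whereas Ppara gave -0.61 ± 0.26 (adjusted p = 0.107). The coactivator Ppargc1a had a shift of 1.14 from early to late (adjusted p = 0.00102), Ppargc1b of 0.75 (adjusted p = 0.0199) and the mitochondrial deacetylase Sirt3 of 0.68 (adjusted p = 0.00548). Ppargc1a lay near the dim end, with means of 4.48 in control and 4.02 in CLA, under the highest kidney marker mean of 4.56. Without day 1 the shift was 1.06 for Ppargc1a (adjusted p = 0.00871) and 0.66 for Sirt3 (adjusted p = 0.0259), while that of Ppargc1b was 0.01 (adjusted p = 0.991) and so rests on day 1, when its difference was -2.42. Of 13 other known PPAR targets, 6 were lower and 3 higher, with a median of -0.09. Cidea (-2.27), Ucp3 (-2.04) and Vnn1 (-1.94) fell most, and the 3 that rose, also picked after their values were seen, were Fgf21 (1.64), Plin2 (0.61) and Creb3l3 (0.46).

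Other probe sets of the same genes mostly gave the same direction, with sizes that differed for a few. All 4 Abcd2 sets were lower (-2.05 to -0.94), as were all 3 Pex19 sets (-1.39 to -1.05). All 3 Cpt1a sets rose, by 0.86 to 0.92. The second Pex11a set gave -1.54, and its late minus early shift of -0.73 passed (adjusted p = 0.00302 over all probe sets), unlike that of the set used. For Cat the second set gave -1.0 against -0.58. A second Hadhb set gave -0.24 and did not pass (adjusted p = 0.129 over all probe sets), while a dimmer one gave -0.31 (adjusted p = 0.00639). The second Slc25a20 set gave -0.55 (adjusted p = 0.00836 over all probe sets). For Decr1 the second set gave -1.11 and a late minus early shift of only 0.09, so its shift depends on the set read. Another Acaa2 set gave -0.93 and passed (adjusted p = 0.0372), with a shift of 1.78. Sets whose names end in _x_at or _s_at can bind related transcripts. They stand for Hadh, Acaa1a and Acaa2 here. Acot1 and Acot2 are close paralogues, as are Acaa1a and Acaa1b, and signal from the partner gene cannot be told apart in their sets.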

How the data were processed

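The deposited values are log2 expression values per probe set, made by the authors with RMA per the submitters' processing notes (version not given in the sources used here). RMA equalises the distribution of signals across arrays. The values run from 1.90 to 14.18 and were used with no further normalisation and no filter. The number of arrays, 2 per group, limits the precision.

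Of 45101 probe sets, 34958 name 1 gene in GEO's platform annotation, 932 name several and 9211 none. Of the 34958, 34754 matched the GRCm38.p6 gene table and took its symbols, and the rest kept the symbol of the platform annotation. Together the 34958 give 18194 genes, each read by its probe set with the highest mean.

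Tests were run with limma 3.58.1 in R 4.3.3, two-sided, with Benjamini-Hochberg adjustment over all genes and a threshold of 0.05. The effect over 7 days was fitted on the 14 group means with day as a block. Daily effects, the F test between days and late minus early came from 1 model of 14 groups and 28 arrays with 14 residual degrees of freedom. The code was tested on simulated data. Figures used matplotlib 3.10.9 in Python 3.11.15.

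The members and all gene lists were chosen with earlier results of these data known. Full values were given for members that passed over 7 days with a size of at least 0.8, for those that rose and for the enzymes of a step present in both organelles. From each other list the 3 largest called genes were named, or the brightest where none passed. Alternatives were other scalings, probe sets, filters and blocks and the omission of each array and day. No replicate number entered the main models. Lists and pairs without day 1 or with Hsd17b4 were added after the data were seen.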

Additional observations from a re-analysis of the deposited data

Results flagged for a closer look

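The CLA effect of 9 genes differed between late and early days. The late minus early difference (log2) was 0.62 for Slc25a20, 0.75 for Acadvl, 0.57 for Acadl, 0.67 for Acadm, 0.67 for Hadhb, 1.09 for Acaa2, 0.66 for Decr1 and 0.54 for Etfdh. For Eci3 it was -1.45. Without day 1, Slc25a20, Acadl and Hadhb did not pass. The daily effects differed by the F test in 6 genes, with an adjusted p of 0.0146 for Cpt1a, 0.0114 for Acadvl, 0.0121 for Acadm, 0.0331 for Acaa2, 3.85e-05 for Eci3 and 0.00428 for Acot1. Without day 1 the F test passed for Acadvl alone.

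Probe sets that name 2 genes entered no comparison above. The set shared by Acot1 and Acot2 was 0.46 higher in CLA over 7 days (adjusted p = 0.033 over all probe sets). The 2 sets shared by Acaa1a and Acaa1b were lower, at -0.98 (adjusted p = 0.00132) and -0.73 (adjusted p = 0.000979), and the 2 sets that name Acaa1a alone gave -0.26 and -0.73.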

How the results depend on the processing

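Over 7 days the lower count of 26 stayed between 23 and 29. The higher count of 3 stayed at 3, or at 2 with genes of a mean under 5 left out. This kept 9928 genes and 32 members, without Acot1, Acox3 and Decr2. That filter left 1 member higher on each of days 2, 3, 4, 7 and 17, and quantile normalisation left 1 on day 17. The sign of Acot8 turned, to -0.0046 with quantile normalisation and to -0.0067 without day 7. The F test between days passed for 1 member without day 1, an alternative added after the data were seen. With the replicate number as a block, the F test passed for 12 members and late minus early for 13. The daily lower counts were then 25, 22, 30, 25, 13, 16 and 19, and Acadvl, Acaa2 and Decr2 passed as lower over 7 days. Shares over all genes with this block are not given here. Whether genes in general also gained calls is thus not shown. Deviations of same-numbered arrays correlated at 0.0978 to 0.566 by day, over 0.1 on 6 of 7 days and positive on all 7, which is a hint from the data and not from the labels that the numbers pair the arrays. The threshold of 0.1 on every day was missed on day 7, so the block was kept out of the main tests. Omitting 1 array gave lower counts of 15 to 23, 4 to 20, 15 to 25, 8 to 20, 2 to 10, 8 to 14 and 10 to 15 from day 1 to day 17, higher counts of 0 to 1 on day 1, 0 to 2 on days 2 and 17, 2 on days 3, 4 and 7 and 2 to 3 on day 10, and 4 to 7 members in the F test. Late minus early held 7 to 12. Without replicate 1 or 2 the lower count was 23 or 24. Over 7 days Slc25a20 lost its call under 8 of 16 alternatives and Acaa1a, Eci2 and Pex5 under 1 each, while Acaa2, Acadvl, Acox3 and Decr2 gained one under 1 to 3. The mean of all sets ended the late minus early call of Decr1 (0.37) and of Etfdh (0.21). The cause was not tested.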

Other observations

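Markers of tissues next to the retroperitoneal pad were read as a check of the dissection. All 7 kidney markers had means under 5 in both diets and none passed; the brightest, Aqp2, read 4.56 in control and 4.53 in CLA. Of 10 skeletal muscle markers, 3 were lower (Myl1 by 0.87, Myh1 by 0.74 and Mb by 0.45). The log2 of the summed signals of all 10 ran from 10.4 to 14.2 in control and from 9.40 to 13.2 in CLA. Of 7 adrenal markers, Star rose by 1.18 and Dbh fell by 0.27. Of 6 liver markers, Cyp2e1 fell by 1.79 and Alb by 1.44, and fat is known to express Cyp2e1 as well. Macrophage markers were led by Fcgr1 (3.47), Cd68 (2.78) and Tyrobp (2.47), and adipocyte markers by Slc2a4 (-2.25), Lipe (-2.04) and Lep (-1.87). The part of muscle or liver RNA in the fatty acid oxidation genes was not tested.

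Fabp3, a fatty acid binding protein of muscle and brown fat, had a CLA effect of -0.31 early and 3.72 late (late minus early 4.03, and 4.11 without day 1), and Cidea, a protein of lipid droplets in brown fat, one of -3.88 early (-4.42 without day 1) and -0.13 late. Both were picked after their values were seen.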
